A study of Homo sapiens with 4 samples.

Results

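The proteasome subunit genes are the protein-coding genes of GENCODE 44 named PSMA to PSMG followed by a number, on chromosomes 1 to 22 and X of GRCh38. There were 48 such genes among 19970 protein-coding genes. No value of the peak lists enters the rule. MTF-1, a zinc finger transcription factor of the metal response, was profiled by CUT&RUN in MDA-MB-231 cells, which are an established line from a human breast cancer. The antibody in CUT&RUN brings a nuclease to a chromatin protein, and the DNA it releases is sequenced. Control cells, in 2 libraries, were passaged in normal medium without treatment. Cadmium cells, in 2 libraries, were selected by serial passaging in cadmium sulfate, which was raised from a lower dose to 10 µM. They were then passaged long term at 10 µM, and the paper calls them cadmium resistant. The authors merged the 2 libraries of each condition before they called peaks, so the data are 1 peak list per condition with no spread between replicates. The lists hold positions and no read count, height or score. Depth is unknown, and no comparison between the conditions below carries a test.

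The proteasome is the protease that degrades most ubiquitin-tagged proteins of the cell. Its 20S core is a barrel of alpha rings, which gate the entrance, and beta rings, which hold the cutting sites. The 19S cap binds ubiquitin chains, unfolds the substrate with a ring of ATPases and feeds it into the core. Other caps, built from the PSME proteins, open the core without ubiquitin. The subunits within the core, and those within the cap, are made in near fixed proportions in almost every cell. When proteasome activity falls, the transcription factor NFE2L1 raises the genes of the subunits together through antioxidant response elements in their promoters. Some catalytic subunits are exchanged in particular tissues. PSMB8, PSMB9 and PSMB10 replace the constitutive subunits in the immunoproteasome, PSMB11 is the subunit of thymic cortical epithelium and PSMA8 that of the testis.

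Nearly every proteasome gene had an MTF-1 peak at its start in both conditions. A start-site peak is a peak with any base within 1 kb of any annotated transcript start of the gene. In the control list 47 of 48 proteasome genes had one (97.9%), against 73.4% of all protein-coding genes. In the cadmium list 46 of 48 had one (95.8%), against 71.7%. The 46 genes with a start-site peak in both lists (background 70.2%) were the 43 outside the tissue-restricted class, from the constitutive core and cap, the chaperones, the activators and the inhibitor, together with PSMB8, PSMB9 and PSMB10. PSMB11 had a start-site peak in the control list only (background 3.21%). None of the 48 had one in the cadmium list only (background 1.50%), and PSMA8 had one in neither list (background 25.1%). Proteasome promoters are mostly rich in CpG, and the share is higher among genes of that kind. Of 10194 protein-coding genes whose RefSeq promoter had a CpG observed over expected ratio of at least 0.6, 90.1% had a start-site peak in control and 89.0% in cadmium. Of 84 genes named as cytosolic ribosomal proteins, most but not all of which are expressed in nearly all cells, 83 had a start-site peak in both lists. RPL10L was the one without.

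**Figure D1:**
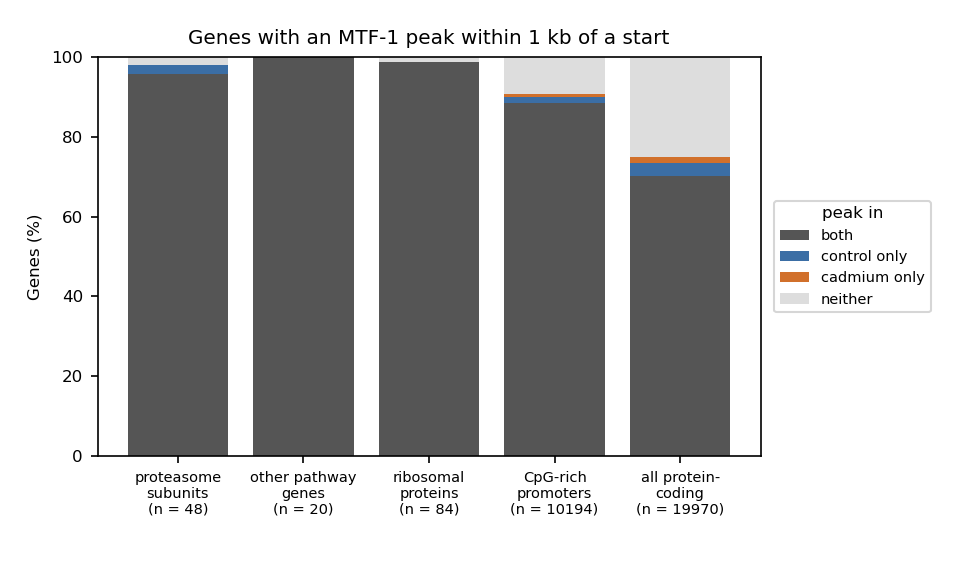
Share of genes (%) with an MTF-1 peak within 1 kb of a start in both lists, control only, cadmium only or neither, for 5 groups of genes. Proteasome subunits are at 95.8% in both lists, close to ribosomal protein genes and above all protein-coding genes at 70.2%.

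The genes without a shared peak both belong to the 5 tissue-restricted subunits of the 20S core. PSMB11 (ENSG00000222028) is a gene of a single start on the plus strand of chromosome 14, from 23042212 to 23044060. The control peak ran from 23041601 to 23043399, a width of 1799 bp, and covered the start from 611 bp upstream to 1187 bp downstream. It shared no base with a cadmium peak. The closest cadmium peak was 399 bp wide, began 3189 bp downstream of the start and was itself absent from the control list. PSMA8 (ENSG00000154611) lies on the plus strand of chromosome 18 from 26133852 to 26193355. The peak closest to its start lay 41670 bp upstream in both lists, and none of its 5 starts had a peak within 1 kb. PSMA8 encodes a protein 83.6% identical to PSMA7, the constitutive alpha subunit it can replace, by global alignment of the GENCODE proteins. PSMA7, on chromosome 20, had the widest start-site peak of the 48 genes in both lists, at 13199 bp in control and 13599 bp in cadmium. That peak also reached the start of SS18L1, 375 bp away on the opposite strand.

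The 3 subunits of the immunoproteasome kept their start-site peaks. PSMB8, the inducible counterpart of PSMB5, had a peak of 3999 bp in control and 3399 bp in cadmium. PSMB9, the counterpart of PSMB6, had a peak of 2999 bp in control and 3599 bp in cadmium, and that peak also reached the start of TAP1, a subunit of the peptide transporter of antigen presentation, 376 bp away on the opposite strand. A PSMB9 transcript starts close to PSMB8, so the PSMB8 peak counted as a start-site peak of both genes. PSMB10, the counterpart of PSMB7, had a peak of 1999 bp in control and 3599 bp in cadmium. The immunoproteasome proteins are 55.2 to 56.9% identical to the subunits they replace, and PSMB11 is 40.8% identical to PSMB5.

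The sequences before these starts differ in their content of CpG, the dinucleotide that is common in promoters of broadly expressed genes. They are shown for PSMB11, whose peak was in control only, PSMA8, which had no peak, PSMB10, whose peak was wider in cadmium, PSMC1, which had the narrowest cadmium peak, and PSMA5, whose peak was the same in both lists. Each runs 5′ to 3′ on the strand of the gene from base 150 to base 31 before the RefSeq start (GRCh38.p14), with CpG in capitals.
PSMB11, chr14:23042062-23042181, plus strand: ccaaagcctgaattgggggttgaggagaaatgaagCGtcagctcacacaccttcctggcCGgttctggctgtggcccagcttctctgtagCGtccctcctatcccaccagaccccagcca
PSMA8, chr18:26133719-26133838, plus strand: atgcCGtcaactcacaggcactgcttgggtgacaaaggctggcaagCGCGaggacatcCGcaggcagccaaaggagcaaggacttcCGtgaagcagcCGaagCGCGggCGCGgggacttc
PSMB10, chr16:67936881-67937000, minus strand: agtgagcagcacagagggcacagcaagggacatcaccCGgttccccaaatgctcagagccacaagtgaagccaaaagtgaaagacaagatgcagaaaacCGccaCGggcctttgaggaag
PSMC1, chr14:90256403-90256522, plus strand: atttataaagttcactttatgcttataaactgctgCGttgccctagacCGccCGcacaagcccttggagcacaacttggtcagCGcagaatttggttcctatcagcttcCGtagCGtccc
PSMA5, chr1:109426479-109426598, minus strand: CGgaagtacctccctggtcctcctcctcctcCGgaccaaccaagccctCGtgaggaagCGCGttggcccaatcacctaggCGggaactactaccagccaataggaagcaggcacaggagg

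The stretch of PSMB11 holds 3 CpG, that of PSMB10 3, those of PSMC1 and PSMA5 6 each and that of PSMA8 10. Over the whole RefSeq promoter of 300 bases (250 before and 50 after the start), the CpG observed over expected ratio was 0.169 for PSMB11, 0.329 for PSMB10 and 0.922 for PSMA8. PSMB11 had the lowest ratio of the matched proteasome promoters, while PSMA8, which had no peak, was above the median. RefSeq promoters were matched for 42 of 48 proteasome genes, and PSMA7, PSMB1, PSMB6, PSMB7, PSMD4 and PSMG3 have no entry. The median ratio over the 42 was 0.774 and that over 15320 protein-coding genes 0.768, while 35 of the 42 (83.3%) and 66.5% of all reached 0.6. Most RefSeq starts equal the GENCODE start, but the RefSeq start minus the GENCODE start, in the direction of transcription, was -44304 bp for PSMG2, -5339 bp for PSMF1, -632 bp for PSMB8, -320 bp for PSMB5 and -65 bp for PSMA6, so the promoters of these genes do not hold the canonical start.

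In the 20S alpha ring, all 7 genes from PSMA1 to PSMA7 had a start-site peak in both lists, with a median width of 2399 bp in control and 2199 bp in cadmium. For each gene the peak closest to the start of the Ensembl canonical transcript was taken, here called the gene peak. Widths come in steps of 200 bp, the bin of the peak caller, so a difference of 200 bp is a single step. PSMA5 and PSMA6 had peaks of 2999 bp with the same edges in both lists. PSMA1 fell from 1799 bp in control to 999 bp in cadmium, PSMA2 from 2399 to 1399 bp and PSMA3 from 2199 to 1599 bp. PSMA4 went the other way, from 1599 to 2199 bp. The alpha ring thus held 3 narrower, 2 equal and 2 wider peaks in cadmium. Of all protein-coding genes with a start-site peak in both lists, 61.1% had a narrower, 13.0% an equal and 25.9% a wider peak.

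In the constitutive 20S beta ring, all 7 genes had a peak in both lists, with medians of 2199 bp in control and 1999 bp in cadmium. PSMB5, the chymotrypsin-like catalytic subunit, had a peak of 3399 bp in control and 1399 bp in cadmium. PSMB7, the trypsin-like subunit, had 1599 bp and 999 bp. PSMB6, the caspase-like subunit, had 1199 bp in control and 1399 bp in cadmium. The 3 catalytic genes therefore did not move one way. At PSMB4 a single control peak of 3799 bp stood over 2 cadmium peaks of 1999 bp and 799 bp, of which the first covered the start. PSMB3 had a peak of 8399 bp in control and 11399 bp in cadmium that also lay within 1 kb of a start of PCGF2, a Polycomb gene. PSMB1 went from 1999 bp to 2799 bp, with the start of TBP, the TATA-binding protein, 995 bp away on the opposite strand. PSMB2 had the same peak of 2199 bp in both lists.

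**Figure D2:**
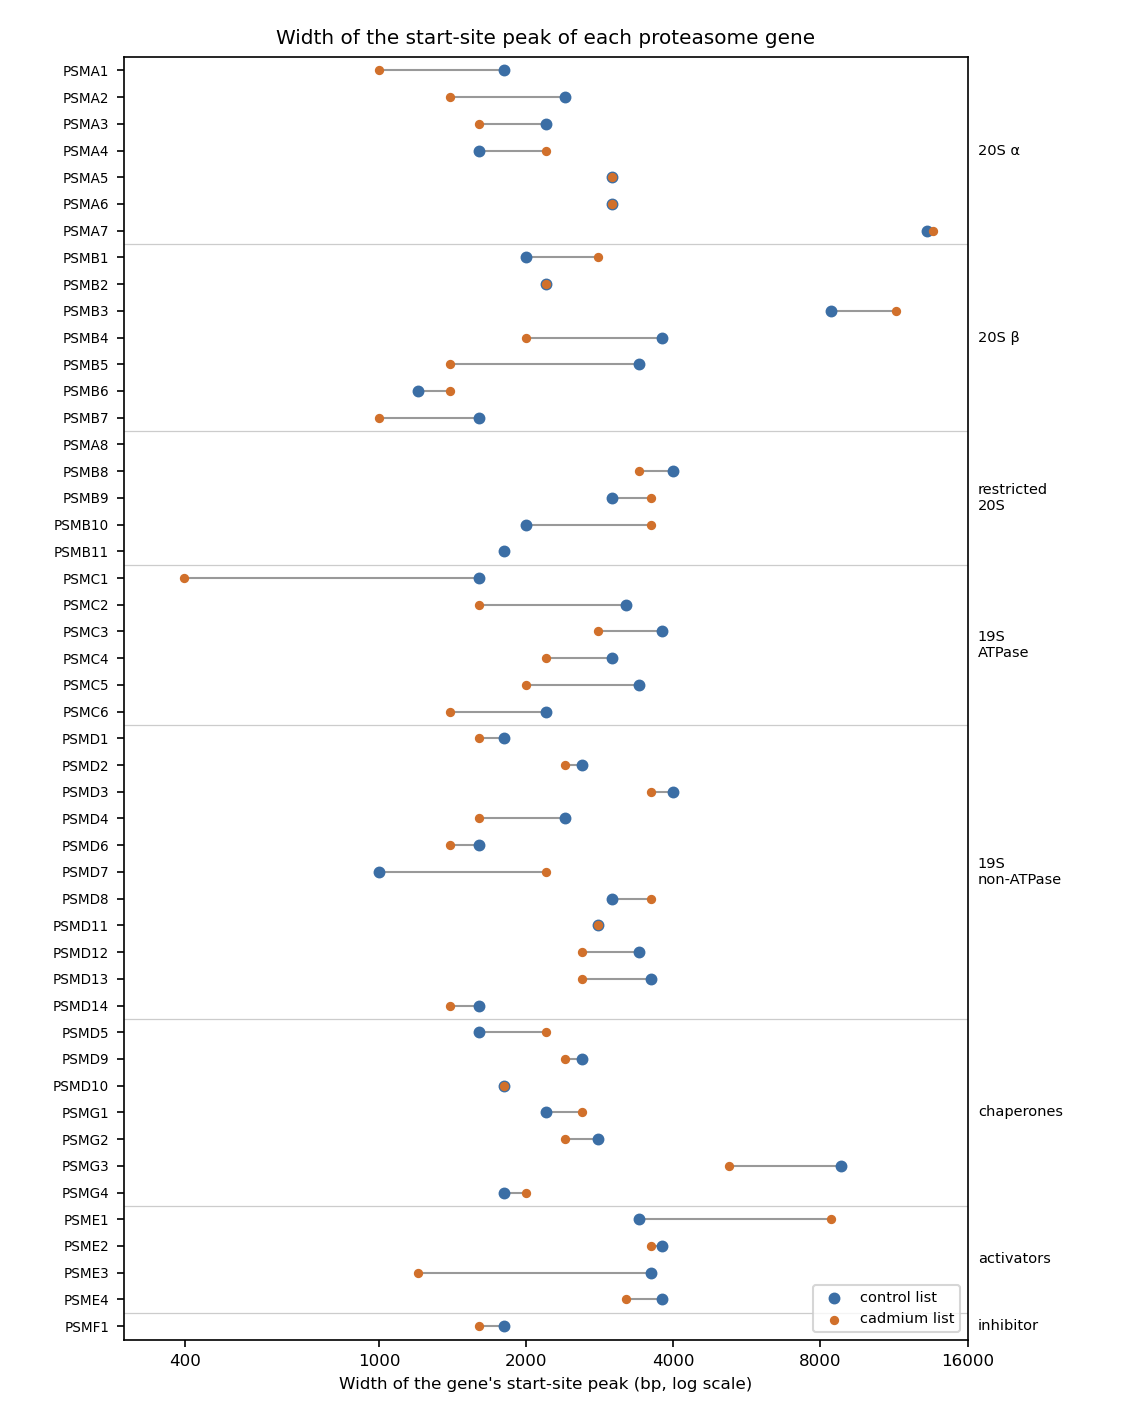
Width (bp, log scale) of the gene peak of each proteasome gene in the control list (blue) and the cadmium list (orange), joined by a line and ordered by subunit class. PSMA8 has no point and PSMB11 only a control point. All 6 ATPase genes lie further left in cadmium, and PSMC1 has the narrowest peak at 399 bp.

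The 6 genes of the 19S ATPases, PSMC1 to PSMC6, form the ring that unfolds substrates. All 6 had a narrower peak in the cadmium list, where 61.1% of the 14014 protein-coding genes with a start-site peak in both lists had a narrower one. PSMC1 had a peak of 1599 bp in control and of 399 bp in cadmium, the narrowest of the proteasome genes in that list. PSMC2 had 3199 bp and 1599 bp. PSMC3 had 3799 bp and 2799 bp. The peaks of PSMC4 went from 2999 to 2199 bp, of PSMC5 from 3399 to 1999 bp and of PSMC6 from 2199 to 1399 bp. The class median was 3099 bp in control and 1799 bp in cadmium, with a median change of -1100 bp against -400 bp over all protein-coding genes. The ATPase class is small, its genes are not replicates of a condition, and no list can be set against a second library, so whether this class differs from the others was not tested.

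The 11 structural genes of the 19S cap outside the ATPases all had a peak in both lists. Their median width was 2599 bp in control and 2399 bp in cadmium, and 8 were narrower, 1 equal and 2 wider in cadmium, beside 61.1%, 13.0% and 25.9% of all protein-coding genes. PSMD4, a ubiquitin receptor of the cap, had 2399 bp in control and 1599 bp in cadmium. PSMD14, the deubiquitinase that cuts the chain from the substrate, had 1599 bp and 1399 bp. PSMD11 had 2799 bp with the same edges in both lists. PSMD7, the partner of PSMD14, had the narrowest control peak of the proteasome genes, at 999 bp, and a peak of 2199 bp in cadmium. PSMD8 had 2999 bp in control and 3599 bp in cadmium. PSMD3 had the widest control peak of this class, at 3999 bp, and 3599 bp in cadmium. PSMD6 had 1599 bp and 1399 bp. PSMD2 and PSMD13, scaffold and lid subunits, had 2599 and 3599 bp in control and 2399 and 2599 bp in cadmium.

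The 7 assembly chaperones build the core (PSMG1 to PSMG4) or the base of the cap (PSMD5, PSMD9 and PSMD10, the last also known as gankyrin). All had a peak in both lists. Of these genes 3 had a narrower, 1 an equal and 3 a wider peak in cadmium. PSMG3 had one of the widest peaks, at 8799 bp in control and 5199 bp in cadmium, a loss of 3600 bp that was the largest narrowing among the proteasome genes. PSMD5 went from 1599 to 2199 bp and PSMD10 stayed at 1799 bp.

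Among the activators, PSME1 and PSME2 form the interferon-inducible 11S cap, PSME3 the nuclear one, and PSME4 encodes PA200. PSME1 and PSME2 lie beside each other on chromosome 14, and in cadmium the peak of PSME1 was 8399 bp wide, from 24135401 to 24143799. It spanned 2 separate control peaks, of which the one at the PSME1 start was 3399 bp wide. The increase of 5000 bp was the largest of the proteasome genes, and the joined peak came within 1 kb of a start of PSME2. PSME2 itself had a gene peak of 3799 bp in control and 3599 bp in cadmium, shared with RNF31, a subunit of the linear ubiquitin ligase, whose start is 73 bp away. PSME3 narrowed from 3599 to 1199 bp, with the start of the autophagy gene BECN1 47 bp away. PSME4 had 3799 bp and 3199 bp. The inhibitor PSMF1 (PI31) had 1799 bp and 1599 bp.

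Over the 46 genes with a gene peak in both lists, 28 were narrower in cadmium (60.9%), 5 equal (10.9%) and 13 wider (28.3%). Over all protein-coding genes with a peak in both lists the shares were 61.1% narrower, 13.0% equal and 25.9% wider. The proteasome genes taken as a whole are thus close to the background in the direction of change. The median width was 2599 bp over the 47 genes with a control peak (quartiles 1799 and 3399 bp). It was 2199 bp over the 46 with a cadmium peak (1599 and 2999 bp). The medians over all protein-coding genes were also 2599 and 2199 bp. The upper quartile was lower than that of all protein-coding genes, at 3399 against 3999 bp in control and 2999 against 3199 bp in cadmium. For the 46 genes with a peak in both lists the control median was 2699 bp, against 2599 bp over all such protein-coding genes. Their median change was -200 bp, against -400 bp. The peaks overlapped for all 46 genes. The cadmium peak lay inside the control peak at 25 genes, and the control peak inside the cadmium peak at 10. Both had the same edges at 5, namely PSMA5, PSMA6, PSMB2, PSMD10 and PSMD11. The same counts were not computed over all protein-coding genes, so whether they are particular to proteasome genes was not tested. In the cadmium list as a whole peaks were narrower, with a median of 999 bp against 1399 bp in control, and how much of the change at proteasome genes goes with that was not tested.

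Changes of at least 1000 bp were found at 14 genes. Of these 10 were narrower in cadmium, among them PSMG3, PSME3, PSMB5, PSMB4 and PSMC2, where the gene peak lost between 1600 and 3600 bp. The PSMB4 value sets the control peak against only 1 of the 2 cadmium peaks that it overlaps. Within 1 kb of the PSMB4 start, 1573 bases lay in control peaks and 1627 in cadmium peaks. The 4 that were wider were PSME1 (5000 bp), PSMB3 (3000 bp), PSMB10 (1600 bp) and PSMD7 (1200 bp). Among all protein-coding genes with a peak in both lists, 29.9% were at least 1000 bp narrower and 7.88% at least 1000 bp wider.

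**Figure D3:**
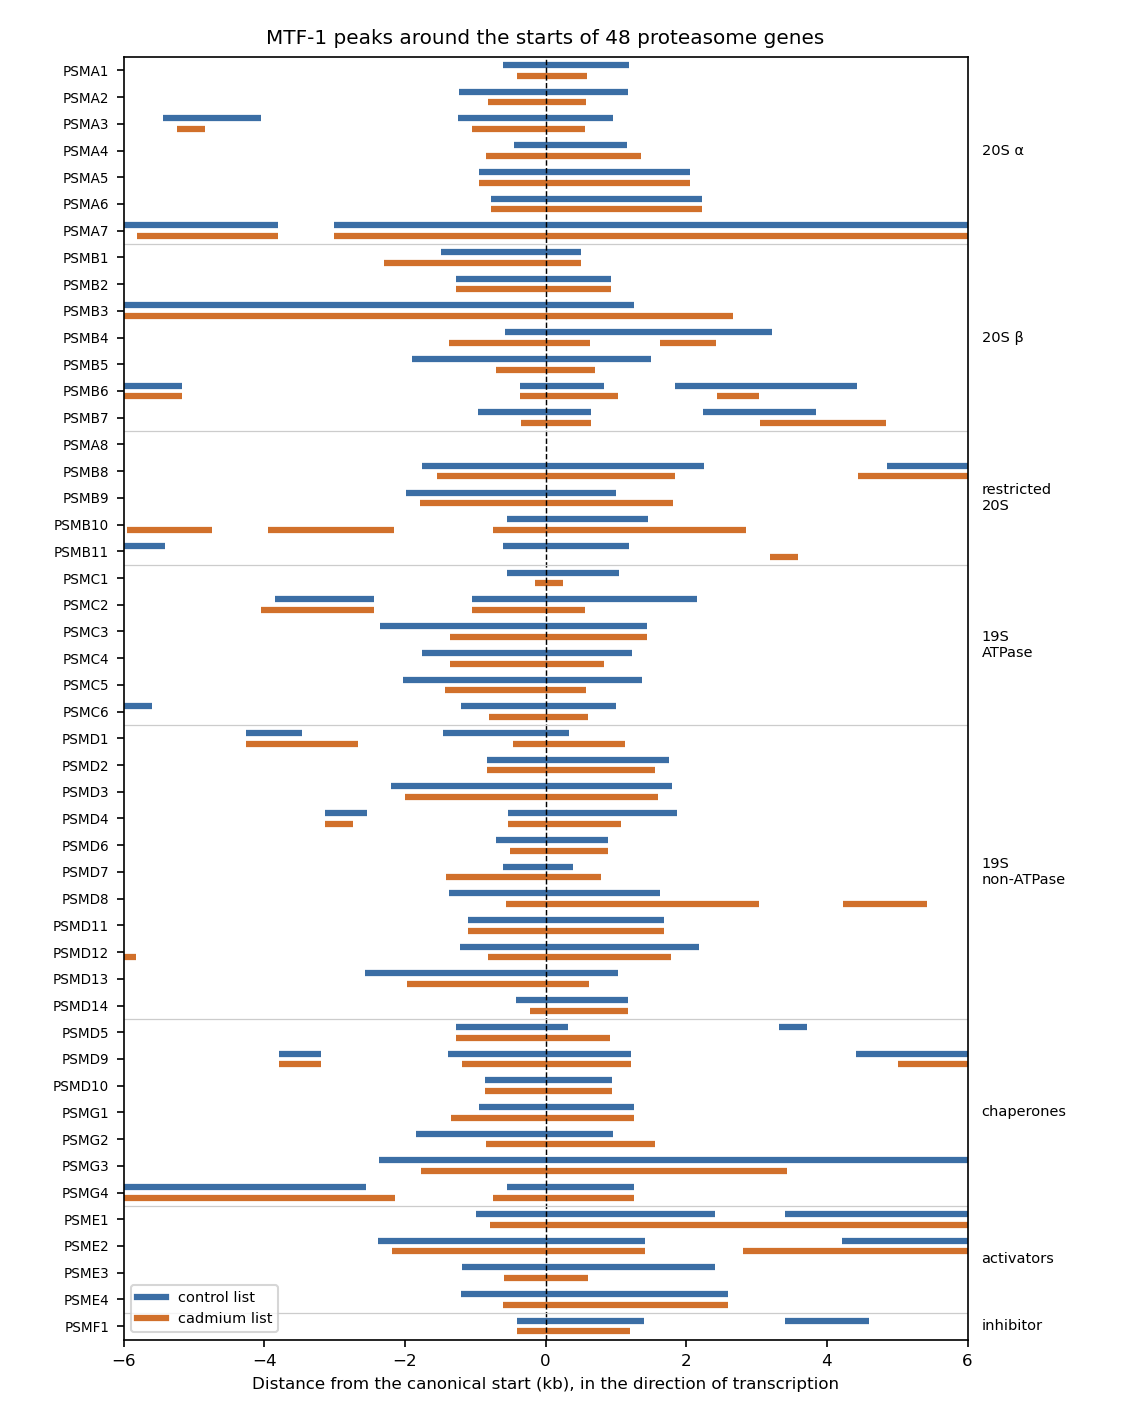
MTF-1 peaks of the control list (blue) and the cadmium list (orange) within 6 kb of the canonical start of each of 48 proteasome genes, drawn in the direction of transcription (kb). Bars cover the dashed start line at every gene except PSMA8 in both lists and PSMB11 in cadmium, and the peak of PSME1 runs on downstream in cadmium.

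The peaks sat over the start itself. The canonical start lay inside a peak at 47 of 48 proteasome genes in control and 46 in cadmium, against 66.5% and 64.5% of all protein-coding genes. The latter shares include genes without a start-site peak. Of all protein-coding genes with one, 13283 of 14655 had the start inside it in control and 12884 of 14314 in cadmium. The median reach was 1199 bp upstream and 1252 bp downstream in control, and 850 bp upstream and 1185.5 bp downstream in cadmium. The upstream edge was closer to the start in cadmium at 26 genes, at the same place at 12 and farther at 8. Of the 12641 protein-coding genes with the canonical start in a peak of both lists, 47.2% had a closer, 30.1% an equal and 22.7% a farther upstream edge. The downstream edge was closer at 19 genes, at the same place at 15 and farther at 12, beside 50.3%, 26.5% and 23.3% of all. At 1000 bp upstream of the start, 58.7% of the 46 genes were covered in control and 45.7% in cadmium, and all protein-coding genes with a peak in both lists stood at 55.3% and 46.0%. At 1000 bp downstream the shares were 73.9% and 58.7%, against 63.7% and 55.0%. At 2000 bp upstream they were 17.4% and 10.9%, against 26.1% and 18.5%. At 2000 bp downstream they were 26.1% and 21.7%, against 30.6% and 21.5%. Of the bases within 1 kb of the canonical start, a median of 1954.5 bp lay in control peaks and 1748.5 bp in cadmium peaks, against 1476.5 and 1383 bp over all protein-coding genes. The latter medians include the 25.1% of genes with a start-site peak in neither list. Over the genes with CpG-rich promoters the medians were 1799 and 1639 bp. Of all 48 proteasome genes, 20 were covered over fewer bases in cadmium, 19 over equally many and 9 over more. The first count holds PSMB11 and the second PSMA8, which had no covered base in either list. Among the 46 genes with a peak in both lists, 19 were covered over fewer bases (41.3%), 18 over equally many (39.1%) and 9 over more (19.6%). The shares of all protein-coding genes with a peak in both were 37.9%, 44.5% and 17.6%.

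**Figure D4:**
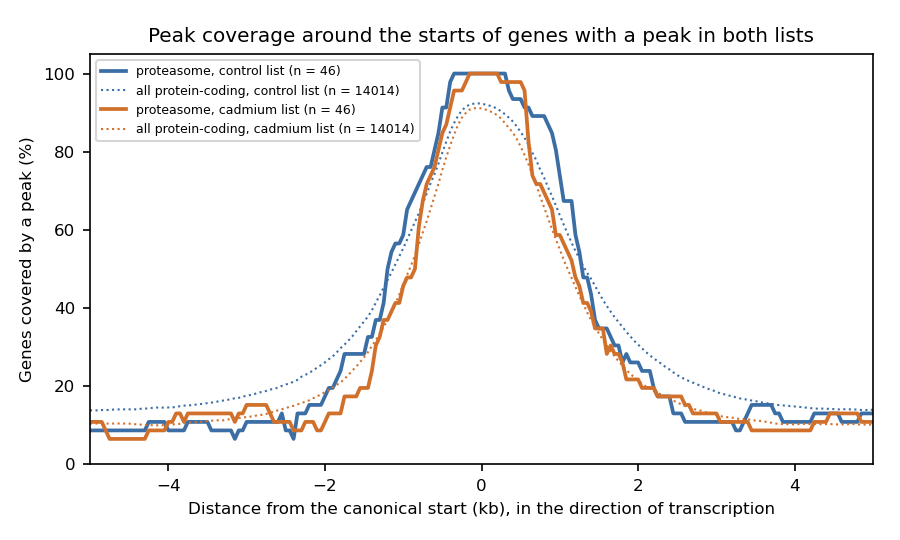
Share of genes (%) covered by a peak at each distance (kb) from the canonical start, for 46 proteasome genes (solid) and 14014 protein-coding genes (dotted) with a start-site peak in both lists. At the start all 46 proteasome genes are covered in both lists, and at 2 kb upstream they lie below all protein-coding genes in both lists.

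Several peaks cover more than 1 gene, so a start-site peak of a proteasome gene may also be that of a neighbor. In each list 14 proteasome genes had a gene peak within 1 kb of a start of another named protein-coding gene, which was so for 27.0% of all genes with a peak in control and 26.8% in cadmium. In control these 14 peaks had a median of 3499 bp and the other 33 one of 2199 bp. Within 1 kb of the canonical start, 12 proteasome genes had a start on the opposite strand, against 13.8% of all protein-coding genes. Among these pairs were PSMD13 with the mitochondrial deacetylase gene SIRT3 (45 bp), PSMC5 with FTSJ3 (102 bp), PSMD10 with ATG4A (126 bp) and PSMA2 with MRPL32 (202 bp). The lists cannot say which of 2 neighboring starts a peak belongs to.

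Taken peak by peak, the control list held 58 distinct start-site peaks of proteasome genes, of which 56 shared at least 1 base with a cadmium peak and 2 did not (background 10.6% of start-site peaks of protein-coding genes). The cadmium list held 59, of which 55 were shared and 4 were not (background 5.12%). Besides the PSMB11 peak, the unique peaks were not at canonical starts. They lay 4230 to 13425 bp downstream, within 1 kb of other annotated starts of the genes. The lost one was at PSMD13, on chromosome 11 from 250401 to 251599. The gained ones were at PSMB3, from 38761601 to 38762599 on chromosome 17, at PSMD8, from 38378801 to 38379999 on chromosome 19, and at PSMD2, where 2 lay on chromosome 3 from 184305601 to 184306399 and from 184308401 to 184311199. All 4 of these genes had a shared peak at the canonical start. Of 450 distinct annotated starts of the proteasome genes, 335 had a peak within 1 kb in control and 337 in cadmium (74.4% and 74.9%), against 58.1% and 55.8% of the 146165 starts of all protein-coding genes.

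RefSeq promoters were searched on both strands for exact matches to short motifs. The antioxidant response element, the site of NFE2L1 and NFE2L2 with their small MAF partners, was searched as TGACNNNGC. It was found in 13 of 42 proteasome promoters (31.0%), in 14.3% of all protein-coding promoters, in 15.0% of those whose gene had a start-site peak in both lists and in 7 of 67 ribosomal protein promoters (10.4%). The matches are shown for 8 genes of the cap, the core, the chaperones and the activators, because this motif is the one through which NFE2L1 is known to act on subunit genes, although the windows themselves are only matches of letters. Each window of 30 bases runs 5′ to 3′ on the strand of the gene, with the match in capitals (for PSMB9 it is on the opposite strand, so its reverse complement is shown).
PSMB3, chr17:38752627-38752656: gcctccgtttTGACTTTGCaaccaaactac
PSMD3, chr17:39980760-39980789: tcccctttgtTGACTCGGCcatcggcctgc
PSMD12, chr17:67366723-67366752: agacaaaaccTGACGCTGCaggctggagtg
PSMD9, chr12:121888678-121888707: cggcttccggTGACCCAGCtccgccctaag
PSMG1, chr21:39183615-39183644: gcccagggcaTGACAGCGCgggcgggcggt
PSME1, chr14:24136098-24136127: atggcagggcTGACCCCGCctcctccatcc
PSME2, chr14:24146766-24146795: ccctggactgTGACCCAGCcagcaccgcct
PSMB9, chr6:32854034-32854063: gggcggggctGCCTCGTCActtgtctcggg

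All 13 promoters with this match touched a peak in both lists, but so did nearly all proteasome promoters. In all, 40 of 42 proteasome promoters touched a control peak and 39 a cadmium peak, against 68.05% and 66.14% of all protein-coding promoters. The others were those of PSMA8, of PSMB11 in cadmium, and of PSMF1, whose RefSeq start is not the one with the peak. The core of the metal response element, the sequence by which MTF-1 acts on metallothionein genes, was searched as TGCACNC and TGCGCNC. It was found in 14 of 42 proteasome promoters (33.3%), which is near the 34.9% of all protein-coding promoters. Among promoters whose gene had a start-site peak in both lists the share was 39.0%. Windows of 30 bases with the match in capitals are given for 4 of the 14 proteasome promoters, as the sequences closest to what the antibody target is known to bind.
PSMA2, chr7:42932323-42932352: tgctttcagcaTGCGCACaggcacagaatc
PSMA3, chr14:58244703-58244732: gcttctgcacaTGCGCGCcgccagcctctc
PSMC4, chr19:39970958-39970987: ccgcgtgatacTGCGCACgcccacagctcc
PSMD6, chr3:64023648-64023677: ttgagttgggcTGCACCCactctgggactc

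The ETS core CCGGAA was in 19 of 42 promoters (45.2%), against 23.1% of all and 55.2% of ribosomal protein promoters. The CCAAT box of NF-Y was also in 19 (45.2%), against 36.6% of all. The AP-1 site TGACTCA was in 1 promoter, that of PSMD9 (2.38%), against 3.68% of all. Among promoters whose gene had a start-site peak in both lists, 28.9% held the ETS core, 36.3% the CCAAT box and 3.28% the AP-1 site. No match to one of these motifs overlapped a match to another in the proteasome promoters. PSMB11, without a cadmium peak, had 1 metal response element core and 2 CCAAT boxes, and PSMA8, without any peak, had 2 ETS cores. A match of letters is not evidence of binding, and these shares were not tested.

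**Figure D5:**
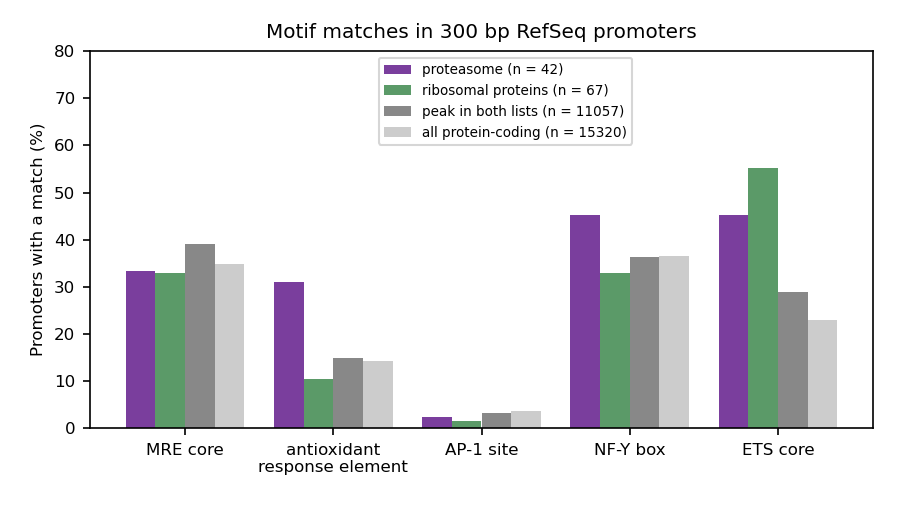
Share of RefSeq promoters of 300 bases (%) with at least 1 exact match on either strand, for 5 motifs and 4 groups of genes. The antioxidant response element is at 31.0% in proteasome promoters and 14.3% in all, while the metal response element (MRE) core is at 33.3% and 34.9%.

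Genes that work beside the subunits were taken as a second list of 20. They include subunits with other names, assembly factors, shuttle proteins and the regulators NFE2L1 and NFE2L2. All 20 had a start-site peak in both lists (background 70.2%), with a median width of 3499 bp in control and 2799 bp in cadmium, against 2599 and 2199 bp over all protein-coding genes. In cadmium 14 were narrower, 2 equal and 4 wider, where the background shares are 61.1%, 13.0% and 25.9%. ADRM1, a ubiquitin receptor of the cap, had the widest at 21599 bp in control and 13999 bp in cadmium. SEM1, the smallest cap subunit, had 1999 bp and 599 bp. POMP, the maturation factor of the core, had 2199 bp and 1799 bp. NFE2L1 had 5799 bp and 5599 bp, and VCP, the segregase that extracts ubiquitin-tagged proteins, had 5599 bp and 3799 bp. TXNL1, a thioredoxin-like protein of the cap, had a peak of 599 bp in both lists.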

How the data were processed

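MTF-1 CUT&RUN libraries of control and cadmium cells were made with an anti-MTF1 antibody. After adaptor trimming, the authors used Bowtie2 for alignment to hg38, merged replicates with SAMtools 1.8 and called peaks with Epic2 at default parameters, listed as SICER 0.0.50 in the submitters' processing notes. No control library is named in the sources used here. The deposited lists give the start and end of each peak in bp, with a last column that is constant and was not used. Peak width is end minus start.

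Peaks were compared with the starts of GENCODE 44 in Python 3.11.15 (numpy 2.4.6) and proteins aligned with Biopython 1.88. The window and motif steps were tested on simulated data, and the choice of the gene peak was not. Named by a set rule were genes lacking a start-site peak, genes with unique start-site peaks, the 5 widest, narrowest and most changed peaks, 2 to 4 examples per class, and the tissue-restricted, activator and inhibitor genes. SEM1, POMP, ADRM1, NFE2L1, VCP and TXNL1 were named after their values were seen. The members, lists and motifs were chosen with earlier results of these data known. The group of CpG-rich genes was added after seeing the data. Sequences are from RefSeq tables of GRCh38.p14. RNA-seq and ATAC-seq were not analysed here.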

Additional observations from a re-analysis of the deposited data

How the results depend on the processing

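No paired analysis was possible because the authors merged the 2 libraries of each condition before peak calling, and for the same reason no library could be left out. Over every window, set of starts and width limit tried, 45 to 47 proteasome genes had a start-site peak in control and 44 to 46 in cadmium. Under the same settings the share of all protein-coding genes was 65.6 to 76.7% in control and 63.2 to 75.2% in cadmium. PSMB11 was in control only and PSMA8 in neither list under all of these settings. With peaks of at least 600 bp alone, 2 genes were in control only (PSMB11 and PSMC1). With at least 1000 bp, 3 were in control only (PSMB11, PSMB7 and PSMC1) and 1 in cadmium only (PSMD7). When the peak centre had to lie within 1 kb, 2 were in control only (PSMB11 and PSME1) and 2 in cadmium only (PSMB3 and PSMG3). With sharing defined as 50% or more of its length in common with the other list, 11 control start-site peaks were unique in place of 2. In the cadmium list 6 were unique in place of 4. When the overlap had to be at least 50% of each peak, 41 genes had a start-site peak in both lists in place of 46. With 3 kb on either side of the start in place of 1 kb, 7 genes were covered over equally many bases in both lists, in place of 19. Of the pairs of a proteasome result and an alternative, 94 stayed within 1.5 times for a count and within 200 bp for a median width. The unknown depth of the lists limits all values, since a narrow peak near the caller's threshold can be absent from a list for lack of reads.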

Other observations

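Away from their starts, the bodies of 18 proteasome genes overlapped further MTF-1 peaks, over 1 kb from every start of the gene. The control list had 24 such peaks, of which 9 shared no base with a cadmium peak, and the cadmium list 20, of which 4 shared none with a control peak. Of these, 5 control and 3 cadmium peaks ran past an end of the gene. In the whole lists, which also hold peaks at starts and between genes, 27.9% of control peaks and 15.1% of cadmium peaks were unique. Neither the share of genes with body peaks nor the unique share of such peaks was computed over all protein-coding genes. The widest peaks found in control only were at the ends of PSMD3 and PSMC1. The PSMD3 peak was 5399 bp wide, of which 959 bases lay in the gene, and the PSMC1 peak 4199 bp, of which 2629 lay in the gene. The start-site peak of PSMC1 was also the narrowest of the proteasome genes in cadmium. Further control peaks without a cadmium counterpart lay within PSMG4 (2199 bp), PSMF1 (1199 bp), PSME3 (999 bp, within 1 kb of a start of AOC2), PSMA1 (599 bp), PSMD5 (399 bp), PSMG2 (399 bp, within 1 kb of a start of CEP76) and PSMA8 (199 bp). The last is the only peak of either list within PSMA8 and lies outside the exons of the canonical transcript.

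Peaks found in cadmium only lay within PSMB7 (1599 and 599 bp, both outside canonical exons) and PSMA1 (399 bp, outside canonical exons). A cadmium-only peak of 1199 bp ran past the end of PSMD11, with 519 bases in the gene. PSMB7 had 2 shared body peaks as well. The shared peak at the end of PSMA5 was 5199 bp wide in control and 4999 bp in cadmium, of which 1358 and 558 bases lay in PSMA5, and it came within 1 kb of a start of SORT1.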
